A study of Mus musculus with 66 samples.

Results

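Arntl (also called Bmal1), Clock and Npas2 encode the activating transcription factors of the circadian clock, and their transcripts were followed across the day in the mouse nucleus accumbens (NAcc), the main part of the ventral striatum. Entries of the gene expression table were taken where the gene symbol equals one of these names, which gave 3 of 24138 entries, XLOC_019094 for Arntl, XLOC_016571 for Clock and XLOC_000081 for Npas2. The values are FPKM (fragments mapped to a gene, scaled to its length in kilobases and to the size of the library), which are per length, so the levels of different genes can be set beside each other. The 66 poly(A) RNA-seq libraries came from tissue punches of 22 groups with 3 libraries each. WT mice and iMSN-D2RKO mice were housed under 12 h of light and 12 h of darkness, with zeitgeber time (ZT) counted from lights on. At ZT3 they received saline or 20 mg/kg of cocaine by intraperitoneal injection, and tissue was taken at ZT7, ZT11, ZT15, ZT19 or ZT23. A baseline group of each genotype was taken at ZT3 and belongs to both its saline and its cocaine series, so each of the 4 series holds 18 libraries.

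All mice were males aged 3 to 5 months, of the strain C57BL/6 in the labels and of a C57BL/6J background in the study's methods. The iMSN-D2RKO mice are D2R flox/flox;D1R-CRE+/-, in which the dopamine D1 receptor promoter drives Cre in the embryonic precursors of medium spiny neurons, and the dopamine D2 receptor is lost from the indirect-pathway neurons (iMSNs). Whether the WT mice carried the flox allele or Cre is not given in the sources used here. Drd2, the deleted gene, is a whole-gene entry here, which does not isolate the deleted part and also counts cells that keep the receptor, so it is no direct check of the genotype labels. It was at 121 ± 18.6 FPKM (SD, n = 3) in WT and 106 ± 21.98 FPKM in iMSN-D2RKO at ZT3. Its level over the later time points and ZT3 differed between the genotypes by -0.02 ± 0.17 on the log2(FPKM + 1) scale in saline (limma, adjusted p = 0.978) and by -0.25 ± 0.19 over the later time points in cocaine (adjusted p = 1.0). These estimates moved with a few libraries: without the 13 set-apart libraries described below they were -0.10 ± 0.15 (adjusted p = 0.708) and -0.31 ± 0.11 (0.514). Without these and replicate 1 of saline-treated iMSN-D2RKO mice at ZT7, which had the highest Drd2 value (374.6 FPKM) and was left out after the values were seen, the saline estimate was -0.23 ± 0.085 (limma, adjusted p = 0.157). Each of these estimates lay below 0, and none passed the adjusted threshold. The tissue label was matched by the spiny neuron genes Penk and Drd1 and their companions, whose 9 entries summed to between 2509 and 15594 FPKM per library with Penk the most abundant.

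Depth in reads is unknown for these values. The libraries did not form a single cloud: along the main axis of the within-group deviations, which held 43.6% of that variance over 9584 genes, 13 libraries scored between 44.3 and 56.1 and the other 53 between -35.9 and 15.1. These 13 are called set-apart libraries below, a description drawn from the data and not a group of the study. They comprised 6 WT and 7 iMSN-D2RKO libraries, and they were spread unevenly over the day, with 6 of 12 libraries at ZT19, 4 of 12 at ZT23, 2 of 12 at ZT15, 1 of 12 at ZT7 and none at ZT3 or ZT11. Marker sums were compared with those of the other libraries of the same group, in the 10 groups that held both kinds. The genes listed for the neighbouring septum and olfactory tubercle summed to 1.44-fold (higher in 9 of 10 groups, 3 of 3 genes higher). That sum rests mostly on Meis2, at a mean of 100 FPKM against 8.74 for Zic1 and 3.49 for Trpc4. Meis2 was at 58.2 FPKM or more in every library, so it does not by itself mark tissue outside the NAcc. Zic1 was at 1.46-fold and Trpc4 at 1.36-fold, each higher in 8 of 10 groups. Oligodendrocyte markers were at 0.801-fold (higher in 2 of 10 groups, 4 of 4 genes lower, Mbp the most abundant).

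Other sums held genes that went opposite ways. The interneuron sum was at 1.31-fold (higher in 8 of 10 groups), with Sst, the most abundant, at 1.34-fold and Pvalb at 0.444-fold. The astrocyte sum was at 1.40-fold (higher in 9 of 10 groups), with Slc1a3, the most abundant, at 1.52-fold and Aqp4 at 1.67-fold, but Aldh1l1 at 0.693-fold. The spiny neuron sum was at 0.987-fold (higher in 5 of 10 groups, Penk the most abundant), with Drd2 at 2.09-fold, while Adora2a, the adenosine receptor gene of the same indirect-pathway neurons, was at 0.533-fold, Ppp1r1b at 0.683-fold and Pdyn at 0.661-fold. Among the microglial genes P2ry12 was at 2.12-fold and Tmem119 at 0.512-fold, and among the endothelial genes Ly6c1 was at 1.80-fold and Cldn5 at 0.495-fold (sums at 1.07- and 1.06-fold). The sum of the cortical excitatory markers was at 0.938-fold, with Slc17a7, the most abundant, at 0.664-fold, Neurod6 at 2.51-fold and Tbr1 at 1.78-fold. The choroid plexus sum, which rests mostly on Ttr, was at 1.43-fold (higher in 7 of 10 groups), a mean of 0.51 with an SD of 3.00 over the groups on the log2 scale, so the spread was far wider than the difference. The part of tissue composition in the results was not tested.

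ARNTL protein pairs with CLOCK, or in the forebrain with its close relative NPAS2, and the pair binds E-box elements to activate the period and cryptochrome genes, Nr1d1 and Dbp. The period and cryptochrome proteins then repress the pair. The nuclear receptor REV-ERB alpha, the product of Nr1d1, represses Arntl through elements that the activating ROR receptors also bind, so that Arntl transcripts typically run opposite to Nr1d1 and Dbp.

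Arntl lies at chr7:113207465-113314126 on the plus strand, Clock at chr5:76209868-76304792 on the minus strand and Npas2 at chr1:39193731-39363236 on the plus strand (GRCm38, GENCODE). An antisense gene, Gm45355, shares 33 exonic bases with Arntl, and the genes that overlap Clock and Npas2 share 0 exonic bases with them. RefSeq promoter windows (GRCm38.p6, 250 bases before to 50 after a start site) were found for all 3 genes, with 2 windows for Arntl, 3 for Clock and 1 for Npas2. Both strands were searched for the E-box CACGTG, for the D-box TTATGTAA and for the cAMP response element TGACGTCA. The element bound by ROR and REV-ERB receptors was searched for by its core AGGTCA, by the longer form TAGGTCA, which contains that core, and by the variant TAGGTTA.

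Both the variant and the longer receptor form were found in Arntl. They are shown because they are the letters of the element named above, with the match in capitals, from chr7:113207495-113207521 and chr7:113207531-113207557 on the plus strand.
Arntl, variant form: ggtcggaaagTAGGTTAgtggtgcgac
Arntl, longer form: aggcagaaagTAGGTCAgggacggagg
TAGGTTA spanned positions -6 to 1 of the start site at 113207511, and TAGGTCA spanned positions 31 to 37 of the same start site. Among 32851 RefSeq windows, 2.61% held TAGGTCA, 1.44% held TAGGTTA and 16 windows, 0.0487%, held both. AGGTCA, present in 16.3% of all windows, was found once in Clock, on the opposite strand at chr5:76303616-76303621, at positions -119 to -114 of the start site at 76303502. None of the searched letters was in the Npas2 window, and CACGTG, held by 7.15% of all windows, was in none of the 6 windows. The D-box letters (0.938% of windows) and the cAMP response element letters (1.79%) were also in none of the 6.

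Bases upstream of a RefSeq start site that lie in no annotated exon are printed for comparison of the 3 genes, in lower case since they hold none of the searched letters. For Arntl and Clock they end where the annotated gene begins. For Npas2 they lie inside the annotated gene, beginning 291 bases after its start and ending 60 bases short of the RefSeq start site at 39194272. They come from chr7:113207215-113207464 (plus strand), chr5:76304793-76305042 (minus strand, read 5′ to 3′) and chr1:39194022-39194211 (plus strand).
Arntl: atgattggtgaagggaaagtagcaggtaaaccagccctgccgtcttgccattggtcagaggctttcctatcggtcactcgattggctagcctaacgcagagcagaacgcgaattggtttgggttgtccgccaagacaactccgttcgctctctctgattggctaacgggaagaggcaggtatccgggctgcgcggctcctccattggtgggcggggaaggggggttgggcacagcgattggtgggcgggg
Clock: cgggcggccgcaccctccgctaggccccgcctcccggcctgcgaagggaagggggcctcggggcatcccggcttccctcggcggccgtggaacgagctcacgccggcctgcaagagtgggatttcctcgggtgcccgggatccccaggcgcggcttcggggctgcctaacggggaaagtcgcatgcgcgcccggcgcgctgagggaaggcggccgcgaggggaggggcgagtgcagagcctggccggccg
Npas2: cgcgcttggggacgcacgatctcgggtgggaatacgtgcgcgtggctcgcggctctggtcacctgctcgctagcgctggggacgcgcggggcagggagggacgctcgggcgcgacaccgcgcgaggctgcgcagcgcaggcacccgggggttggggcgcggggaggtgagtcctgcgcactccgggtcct

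Npas2 was the most abundant of the 3 activators and exceeded Arntl and Clock in 66 of 66 libraries. Its mean over all libraries was 26.8 ± 7.06 FPKM (SD, n = 66), against 12.9 ± 4.10 FPKM for Arntl and 12.4 ± 4.79 FPKM for Clock. The order of Arntl and Clock depended on the time of day. Among libraries that were not set apart, Arntl exceeded Clock in 0 of 12 at ZT11 and in 6 of 6 at ZT19 and 8 of 8 at ZT23. With the set-apart libraries included it did so in 7 of 12 at ZT19 and 9 of 12 at ZT23. The Arntl to Clock ratio over all libraries of a time point was 0.848 ± 0.0567 (SD, n = 12) at ZT11 and 1.27 ± 0.404 (n = 12) at ZT23. In the set-apart libraries Arntl exceeded Clock in 2 of 13. In bulk tissue, fewer cells of a type and less RNA per cell cannot be told apart, for these and all later values.

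**Figure D1:**
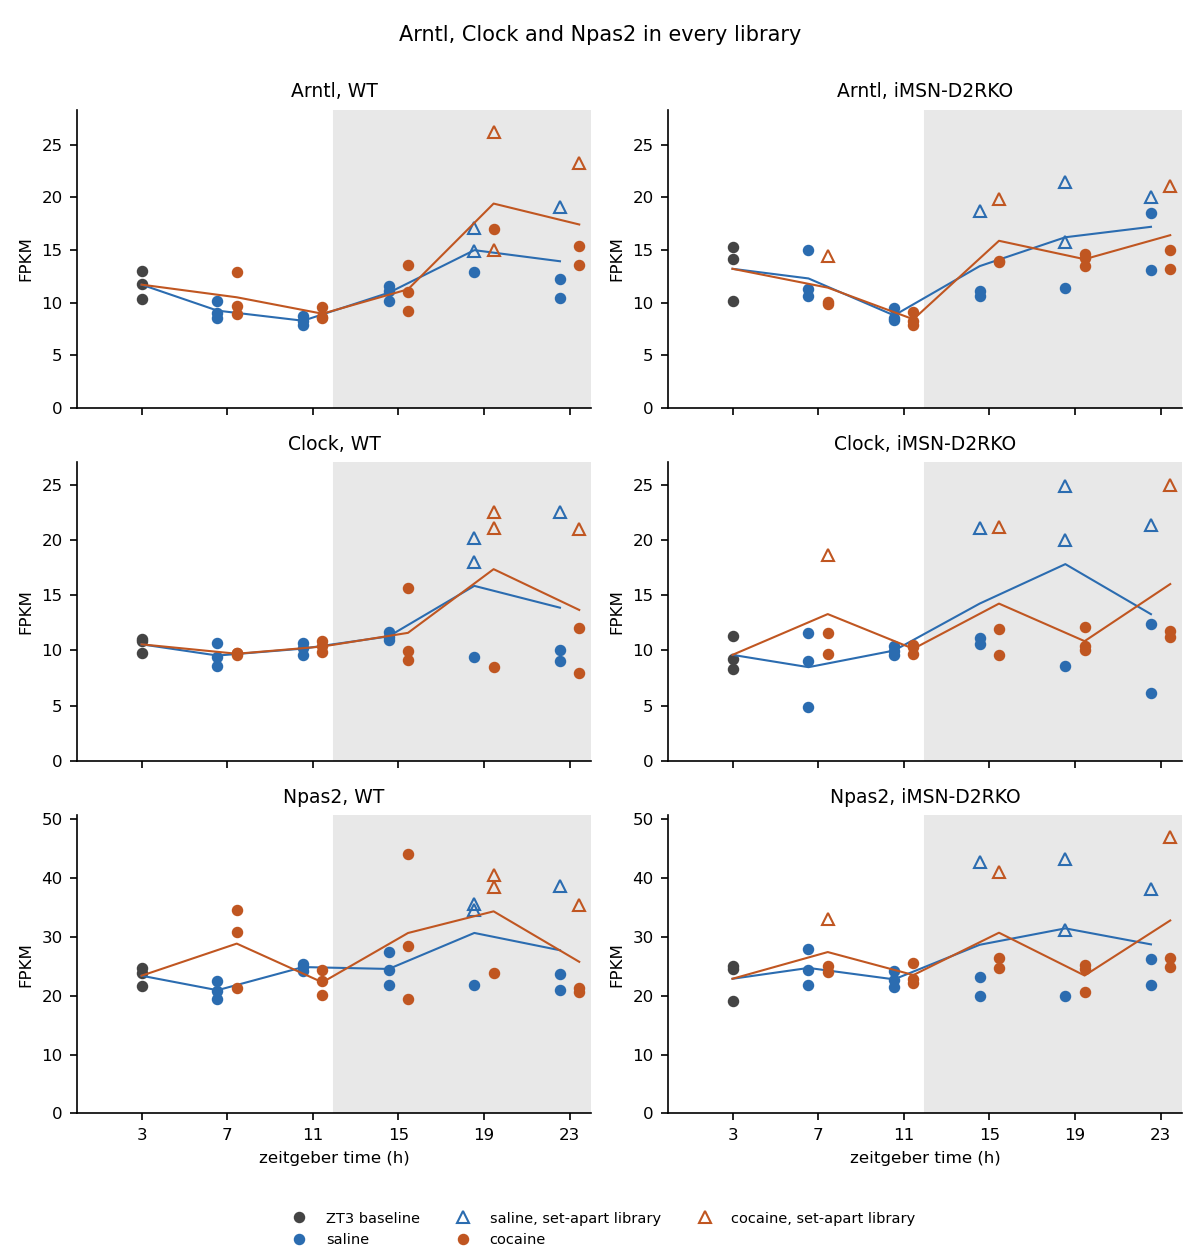
FPKM of Arntl, Clock and Npas2 (rows) in each of the 66 libraries against zeitgeber time in hours, for WT and iMSN-D2RKO mice (columns); circles are libraries that were not set apart, open triangles are the 13 set-apart libraries, colours mark baseline, saline and cocaine, and lines join group means. Arntl was lowest at ZT11 in each series, and the high values of Clock are the open triangles, all at 18.02 FPKM or above.

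Arntl transcripts were lowest at ZT11, the end of the light phase, and highest late in the dark phase in all 4 series. In saline-treated WT mice, Arntl was at 11.8, 10.4 and 13.0 FPKM at ZT3, at 9.01, 8.54 and 10.2 at ZT7 and at 8.75, 8.24 and 7.88 at ZT11. It was then at 11.6, 11.1 and 10.2 at ZT15, at 17.1, 14.9 and 12.9 at ZT19 and at 19.1, 12.2 and 10.5 at ZT23. The ZT11 values lay below all 3 values of ZT3, ZT15, ZT19 and ZT23. How many of all genes did so in this series was not computed. The highest values at ZT19 and ZT23 (17.1, 14.9 and 19.1) were those of the set-apart libraries.

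In cocaine-treated WT mice, Arntl was at 9.68, 12.9 and 8.94 FPKM at ZT7, at 9.59, 8.59 and 8.69 at ZT11 and at 13.6, 9.21 and 11.04 at ZT15. It was at 14.98, 17.0 and 26.2 at ZT19 and at 13.6, 15.4 and 23.3 at ZT23. The ZT19 and ZT23 values did not overlap those of ZT11, a separation whose share over all genes was not computed for this series. The 26.2 and 23.3 were set-apart libraries, although at ZT19 a library that was not set apart (17.0) exceeded a set-apart one (14.98). The group mean went from 8.96 ± 0.55 FPKM (SD, n = 3) at ZT11 to 19.4 ± 6.00 FPKM at ZT19, the widest span of the 4 series.

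In iMSN-D2RKO mice, Arntl was at 10.2, 15.3 and 14.2 FPKM at ZT3. After saline it was at 10.6, 11.3 and 14.99 at ZT7, at 9.51, 8.35 and 8.52 at ZT11, at 11.1, 18.7 and 10.6 at ZT15, at 21.4, 11.4 and 15.8 at ZT19 and at 18.5, 13.1 and 20.1 at ZT23. Every ZT11 library lay below every library of the other time points, in this series and in the cocaine series given next. In each WT series a ZT7 value lay within the ZT11 range. The share of all genes that separated in this way was not computed. After saline the set-apart libraries were the 18.7 of ZT15, the 21.4 and 15.8 of ZT19 and the 20.1 of ZT23. The 18.5 at ZT23 was not set apart. After cocaine, Arntl was at 9.88, 14.4 and 10.03 FPKM at ZT7, at 9.10, 7.89 and 8.29 at ZT11 and at 13.9, 13.9 and 19.9 at ZT15. It was at 13.5, 14.2 and 14.6 at ZT19 and at 21.1, 13.2 and 14.97 at ZT23. The 3 libraries at ZT19 were not set apart and lay close together, all above the highest ZT11 value.

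Arntl at ZT11 and late in the dark phase was also compared without the set-apart libraries. All 14 other libraries at ZT19 and ZT23, over both genotypes and treatments, lay between 10.5 and 18.5 FPKM, with a median of 13.6. They exceeded all 12 libraries at ZT11, which lay between 7.88 and 9.59 FPKM with a median of 8.56, a ratio of medians of 1.59. Of all genes, 2.32% separated in this direction without overlap and 0.243% in the other. Clock and Npas2 did not separate in this way. Of the same 14 libraries, 5 exceeded every ZT11 library for Clock (ratio of medians 0.97) and 2 for Npas2 (0.97).

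Clock, the partner of ARNTL in most tissues, split between the set-apart and the other libraries. Since the set-apart libraries were spread unevenly over the day, this split also followed the time of day in part. Across the 53 libraries that were not set apart it was at 10.2 ± 1.59 FPKM (SD), and across the 13 set-apart libraries at 21.4 ± 2.06 FPKM. The ranges, 4.83 to 15.6 and 18.02 to 25.05, did not overlap. This gap is a description and not a test, since Clock was among the genes behind the axis that defined the set-apart libraries. Its deviations from the group means correlated with the library scores on that axis at r = 0.96. The share of all genes whose ranges separated in this way was not computed. All 12 libraries at ZT11 lay between 9.62 and 10.8 FPKM, with group means of 10.2 ± 0.51 in saline-treated WT, 10.4 ± 0.47 in cocaine-treated WT, 9.99 ± 0.40 in saline-treated iMSN-D2RKO and 10.2 ± 0.44 in cocaine-treated iMSN-D2RKO mice. At ZT19, where saline-treated iMSN-D2RKO and both WT groups each held 2 set-apart libraries, the group SD rose to between 5.71 and 8.403 FPKM. The cocaine-treated iMSN-D2RKO group at ZT19 held none and was at 10.8 ± 1.13 FPKM. The lowest Clock value, 4.83 FPKM, came from replicate 1 of saline-treated iMSN-D2RKO mice at ZT7. That library also had the highest total of all FPKM (690048, against a median of 396432), the highest spiny neuron marker sum (15594, against a median of 4117) and the fewest genes at 1 FPKM or more (12496).

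Npas2, the CLOCK relative prominent in the forebrain, split less cleanly. It was at 24.02 ± 4.04 FPKM (19.1 to 44.0) in the 53 libraries that were not set apart and at 38.4 ± 4.46 FPKM (31.1 to 46.9) in the 13 set-apart ones. The ranges overlapped through 2 libraries, both from cocaine-treated WT mice, one at ZT7 (34.5 FPKM) and one at ZT15 (44.0 FPKM). The ZT11 group means were 24.8 ± 0.56 FPKM in saline-treated WT, 22.3 ± 2.14 in cocaine-treated WT, 22.8 ± 1.39 in saline-treated iMSN-D2RKO and 23.5 ± 1.75 in cocaine-treated iMSN-D2RKO mice. For comparison, Arntl was at 11.4 ± 2.57 FPKM in the libraries that were not set apart and at 19 ± 3.54 FPKM in the set-apart ones, with 7 of the former above the lowest of the latter. Npas2 and Arntl were also among the genes behind the axis, so these ranges are a description too. Their deviations correlated with the library scores at r = 0.86 for Npas2 and 0.76 for Arntl.

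The set-apart libraries were compared with the others of the same group in the 10 groups that held both kinds. Clock was 2.17-fold higher (1.76 to 2.63 over the groups), Npas2 1.68-fold (1.34 to 1.98) and Arntl 1.46-fold (1.21 to 1.72). Each set-apart library exceeded every other library of its group in 13 of 13 cases for Clock and Npas2 and in 12 of 13 for Arntl. These ratios are a description, since the genes entered the axis that defined the libraries. The median ratio over 9555 genes was 0.07 on the log2 scale (quartiles -0.38 and 0.50), and 3.12% of the genes had a ratio at or above that of Clock, 12.9% at or above that of Npas2 and 22.4% at or above that of Arntl. Other clock genes were unequally placed: Bhlhe41, a repressor at E-boxes, was at 2.19-fold, Nr1d2 at 1.85-fold and the deacetylase gene Sirt1 at 1.93-fold, while Dbp was at 0.572-fold and Nfil3 at 0.652-fold. Drd2 was at 2.09-fold.

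**Figure D2:**
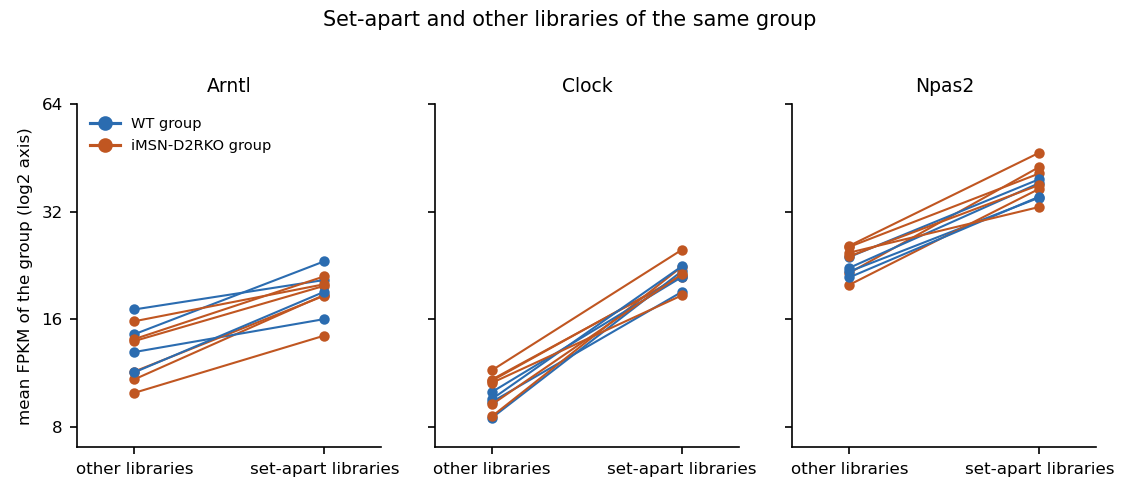
Mean FPKM on a log2 axis of the other libraries and the set-apart libraries of the same group, for each gene, with a line for each of the 10 groups that held both kinds (blue for WT, orange for iMSN-D2RKO). All lines rise for the 3 genes, by 2.17-fold on average for Clock, 1.68-fold for Npas2 and 1.46-fold for Arntl.

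When the 22 groups were ordered by level, no neighbours in that order differed by more than the larger of their SDs for any of the 3 genes. The highest group mean was 2.34 times the lowest for Arntl, 2.102 times for Clock and 1.64 times for Npas2. The median coefficient of variation within a group was 19.8% for Arntl, 33.0% for Clock and 20.8% for Npas2. The lowest 4 places in the Arntl order were the 4 groups of ZT11, at 8.29 ± 0.44 in saline-treated WT, 8.43 ± 0.62 in cocaine-treated iMSN-D2RKO, 8.79 ± 0.63 in saline-treated iMSN-D2RKO and 8.96 ± 0.55 FPKM in cocaine-treated WT mice.

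Whether each activator cycled was tested within each series with JTK_CYCLE, a rank test against cosine shapes with periods from 20 to 24 h, called at a corrected p under 0.01. Arntl was called rhythmic in WT mice after saline (corrected p = 1.90e-04, exact null, 18 libraries, Benjamini-Hochberg adjusted p over all genes 0.0207), with its peak at ZT 22.1. It was also called in WT mice after cocaine (corrected p = 3.07e-04, exact null, adjusted p = 0.0409), with its peak at ZT 23, a call that was lost when replicate 3 of every group, which holds 2 of the 3 set-apart libraries of that series, was left out (0.0499). Neither iMSN-D2RKO series passed, with a corrected p of 0.0199 after saline and 0.0154 after cocaine, both with a fitted peak at ZT 23. In the cocaine series of iMSN-D2RKO mice 1 replicate was left out by Dixon's test.

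The background of such calls differed between the series. Of all genes tested, 9.81% were called in saline-treated WT, 7.61% in cocaine-treated WT, 2.58% in saline-treated iMSN-D2RKO and 1.1% in cocaine-treated iMSN-D2RKO mice. Without the set-apart libraries these shares were 6.37%, 2.36%, 1.21% and 1.91%, and Arntl kept its calls in WT mice, with a corrected p of 9.81e-04 (exact null) after saline and 0.00501 after cocaine. The iMSN-D2RKO series stayed above the threshold, at 0.0124 after saline and 0.0164 after cocaine. With the library score removed from each gene within groups, all 4 series passed for Arntl, at 0.00255, 0.00533, 0.00255 and 0.00745 in the same order, where 7.22%, 7%, 1.99% and 2.75% of all genes were called. Clock and Npas2 were called in none of the 4 series, with a corrected p of 0.168, 0.703, 0.484 and 1 for Clock and of 0.324, 1, 1 and 1 for Npas2. The same was found for Clock and Npas2 without the set-apart libraries.

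The size of the daily change was estimated by fitting a 24 h cosine to log2(FPKM + 1) with limma. The amplitude, the log2 distance from the middle of the curve to its peak, was 0.37 ± 0.065 (SE) for Arntl in saline-treated WT mice, which is a 1.67-fold difference between peak and trough (adjusted p = 0.0218, limma F test). It was 0.48 ± 0.091 in cocaine-treated WT mice (1.94-fold, adjusted p = 0.0241), 0.36 ± 0.10 in saline-treated iMSN-D2RKO mice (1.65-fold, adjusted p = 0.182) and 0.34 ± 0.093 in cocaine-treated iMSN-D2RKO mice (1.59-fold, adjusted p = 0.741). The share of all genes called by this F test was 14.1% and 14.6% in the WT series, 0.00707% (1 gene) in saline-treated iMSN-D2RKO mice and 0% in cocaine-treated iMSN-D2RKO mice, where 568 genes had an unadjusted value under 0.05. The Arntl peaks lay at ZT 21.3 ± 0.67, 21.2 ± 0.73, 21.9 ± 1.07 and 21.1 ± 1.06 h in the same order.

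The amplitude of Arntl without the set-apart libraries was 0.25 ± 0.053, 0.34 ± 0.078, 0.30 ± 0.082 and 0.35 ± 0.066, or 1.42-, 1.60-, 1.52- and 1.61-fold between peak and trough. No series then passed the limma F test (adjusted p = 0.0554, 0.268, 0.974 and 0.0815), so both WT calls of the cosine were lost. Of all genes, 1.06%, 0%, 0% and 0.116% passed in that setting, the 0% series holding 1716 and 456 genes at an unadjusted limma value under 0.05. After removal of the library score, saline-treated WT (adjusted p = 0.0160) and cocaine-treated iMSN-D2RKO mice (0.0340) passed, and cocaine-treated WT (0.0849) and saline-treated iMSN-D2RKO mice (0.406) did not. The shares of all genes called there were 13% and 0.535% in the 2 series that passed and 0.795% and 0.0214% in the 2 that did not. No amplitude of Clock or Npas2 passed the adjusted threshold in any series. Clock had fitted amplitudes of 0.28 ± 0.10, 0.29 ± 0.12, 0.43 ± 0.16 and 0.09 ± 0.13, which became 0.05 ± 0.041, 0.05 ± 0.076, 0.11 ± 0.12 and 0.07 ± 0.052 without the set-apart libraries. Npas2 had amplitudes of 0.19 ± 0.078, 0.16 ± 0.12, 0.18 ± 0.11 and 0.06 ± 0.10, and of 0.07 ± 0.042, 0.10 ± 0.11, 0.09 ± 0.068 and 0.02 ± 0.049 without them.

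**Figure D3:**
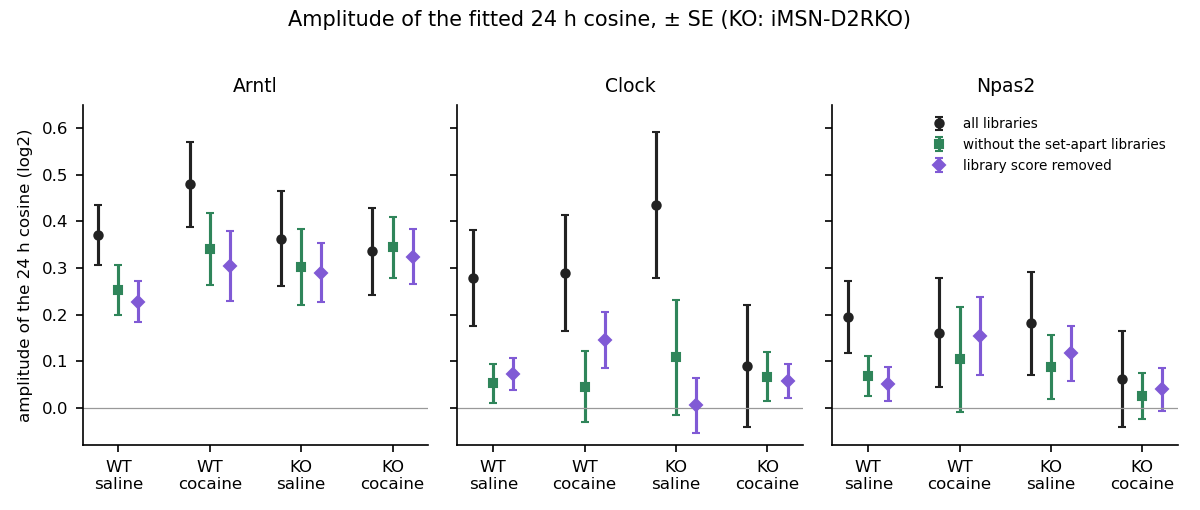
Amplitude of the fitted 24 h cosine in log2 units (± SE) for Arntl, Clock and Npas2 in the 4 series, from all libraries, from those not set apart, and after removal of the library score. Arntl stays between 0.23 and 0.48 throughout, while the Clock values from all libraries (0.09 to 0.43) fall to 0.11 or less without the set-apart libraries.

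Dark hours were set against light hours by a contrast that assumes no cosine shape, the mean of ZT15, ZT19 and ZT23 minus the mean of ZT3, ZT7 and ZT11 on the log2(FPKM + 1) scale. Of all genes, 13.7% were called in cocaine-treated WT, 2.75% in saline-treated WT, 0.942% in cocaine-treated iMSN-D2RKO and 27.3% in saline-treated iMSN-D2RKO mice at an adjusted p under 0.05. Arntl was higher in dark hours by 0.53 ± 0.13 (SE) in cocaine-treated WT mice (limma, adjusted p = 0.00676) and by 0.41 ± 0.13 in saline-treated iMSN-D2RKO mice (adjusted p = 0.0207). The differences of 0.40 ± 0.13 in saline-treated WT mice (adjusted p = 0.0601) and 0.47 ± 0.13 in cocaine-treated iMSN-D2RKO mice (adjusted p = 0.0518) did not pass. Without replicate 3 of every group the cocaine-treated WT estimate was 0.37 and did not pass, and without replicate 1 or replicate 3 of every group the saline-treated iMSN-D2RKO estimate did not pass (down to 0.29). The Arntl difference without the set-apart libraries was 0.41 ± 0.094 in cocaine-treated WT (adjusted p = 0.00200) and 0.41 ± 0.088 in cocaine-treated iMSN-D2RKO mice (0.0102), which both passed. It was 0.26 ± 0.094 in saline-treated WT (0.275) and 0.14 ± 0.097 in saline-treated iMSN-D2RKO mice (0.622), where the call was lost, as it was after removal of the library score (0.14, adjusted p = 0.371), a setting in which 7.65% of all genes were called in cocaine-treated WT, 3.97% in saline-treated WT, 4.76% in cocaine-treated iMSN-D2RKO and 4.26% in saline-treated iMSN-D2RKO mice. Without the set-apart libraries the share of all genes called was 18.1% in cocaine-treated WT, 1.87% in cocaine-treated iMSN-D2RKO, 0.104% in saline-treated WT and 0.215% in saline-treated iMSN-D2RKO mice. With all libraries the 4 intervals overlapped widely, from 0.28 to 0.79, 0.15 to 0.66, 0.15 to 0.65 and 0.22 to 0.72 in the order given. Clock passed only in saline-treated iMSN-D2RKO mice, by 0.55 ± 0.21 (adjusted p = 0.0495), and the difference there was 0.025 when the set-apart libraries were left out and -0.039 after removal of the library score. For Npas2 the 4 differences lay between 0.19 and 0.27, with adjusted p between 0.173 and 0.629. Leaving out the set-apart libraries gave differences between -0.05 and 0.12 for Clock and between -0.10 and 0.07 for Npas2 over the 4 series.

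Cocaine and saline were compared within each genotype over the 5 time points after ZT3 (30 libraries, limma with time point as a factor). No gene of the table was called in either genotype at an adjusted p under 0.05, a share of 0% in WT and 0% in iMSN-D2RKO mice, while 365 and 425 genes had an unadjusted limma value under 0.05. In WT mice cocaine minus saline was 0.18 ± 0.089 (SE) for Arntl, 0.02 ± 0.14 for Clock and 0.11 ± 0.12 for Npas2 on the log2(FPKM + 1) scale. The 95% interval for Arntl, 0.00068 to 0.36, left 0 just outside it before adjustment (p = 0.0492, limma, n = 30 libraries, adjusted p = 1.0). In iMSN-D2RKO mice the differences were -0.03 ± 0.098, 0.08 ± 0.18 and 0.03 ± 0.12, with intervals of -0.23 to 0.18, -0.30 to 0.45 and -0.22 to 0.25. None passed without the set-apart libraries, at 0.16 ± 0.065, 0.01 ± 0.069 and 0.12 ± 0.11 in WT mice and 0.0003 ± 0.077, 0.19 ± 0.11 and 0.10 ± 0.055 in iMSN-D2RKO mice for Arntl, Clock and Npas2 (limma, adjusted p between 0.540 and 0.999).

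The genotypes were compared within each treatment in the same way. In saline, ZT3 included, 0.189% of all genes were called, and iMSN-D2RKO minus WT was 0.20 ± 0.083 (SE) for Arntl (95% interval 0.03 to 0.37, p = 0.0219, limma, n = 36 libraries, adjusted p = 0.441), -0.02 ± 0.14 for Clock and 0.05 ± 0.097 for Npas2. In cocaine, 0.0487% of all genes were called, and the differences were 0.003 ± 0.10 for Arntl, 0.05 ± 0.16 for Clock and -0.02 ± 0.13 for Npas2, with adjusted p of 1.0 for each. None of the 3 activators passed. The difference between the genotypes' cocaine effects was -0.21 ± 0.14 for Arntl, 0.05 ± 0.23 for Clock and -0.09 ± 0.17 for Npas2, and 0% of all genes passed that limma test (271 genes had an unadjusted value under 0.05). Without the set-apart libraries iMSN-D2RKO minus WT was 0.17 ± 0.069 for Arntl in saline (adjusted p = 0.226) and -0.01 ± 0.071 in cocaine (0.989). Clock was then at -0.11 ± 0.086 and 0.08 ± 0.080 and Npas2 at -0.01 ± 0.056 and -0.01 ± 0.10, and the difference between the cocaine effects at -0.17 ± 0.10, 0.21 ± 0.15 and 0.01 ± 0.13 for Arntl, Clock and Npas2, none of which passed.

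At single time points none of the 3 genes passed either. Over the whole table the calls were uneven, with 11.9% of all genes called for iMSN-D2RKO minus WT in cocaine at ZT19, 4.4% in cocaine at ZT15 and 3.07% in saline at ZT7, and at most 0.041% (6 genes, iMSN-D2RKO minus WT at ZT3) in each other comparison at a time point. The other shares above 0 were 0.0205% for the genotypes in saline at ZT19 and 0.0137% in cocaine at ZT23, 0.0205%, 0.00683% and 0.00683% for cocaine minus saline in WT mice at ZT19, ZT15 and ZT7, and 0.0137% for cocaine minus saline in iMSN-D2RKO mice at ZT7 and 0.0137% for the difference between the genotypes' cocaine effects at ZT7. The estimate farthest from 0 for Arntl was the difference between the genotypes' cocaine effects at ZT19 (-0.47 ± 0.31, limma, adjusted p = 0.343), which was -0.09 ± 0.31 without the set-apart libraries. Next came iMSN-D2RKO minus WT in cocaine-treated mice at ZT15 (0.46 ± 0.22, adjusted p = 0.203) and at ZT19 (-0.39 ± 0.22, adjusted p = 0.173), at 0.29 ± 0.15 and -0.25 ± 0.19 without them. After removal of the library score 1 Arntl comparison passed, iMSN-D2RKO minus WT in saline at ZT7 (0.38 ± 0.14, adjusted p = 0.0475), where 20.7% of all genes were called. For Clock the estimates farthest from 0 were the difference between the genotypes' cocaine effects at ZT19 (-0.63 ± 0.52) and cocaine minus saline in iMSN-D2RKO mice at ZT7 (0.61 ± 0.37), which became 0.44 ± 0.43 and 0.36 ± 0.21 without the set-apart libraries. For Npas2 it was the former difference at ZT19 (-0.50 ± 0.38). Leaving out the set-apart libraries left 1 library each at ZT19 in saline-treated WT, cocaine-treated WT and saline-treated iMSN-D2RKO mice. The ZT19 estimates of that setting therefore rest on single libraries, which are assumed to vary like the other groups. None of the 3 genes passed at a time point without the set-apart libraries, the lowest adjusted p being 0.0686 for Arntl, 0.304 for Clock and 0.352 for Npas2. At ZT15 the iMSN-D2RKO libraries (13.9, 13.9 and 19.9 FPKM) all exceeded the WT ones (13.6, 9.21 and 11.04), and at ZT19 they all lay below them (13.5, 14.2 and 14.6 against 14.98, 17.0 and 26.2). Such separation was common in the table: at ZT15 14.1% of all genes lay higher and 7.12% lower in the iMSN-D2RKO libraries without overlap, and at ZT19 18.5% lay higher and 28% lower. The highest library of each of these comparisons, 19.9 and 26.2, was set apart.

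**Figure D4:**
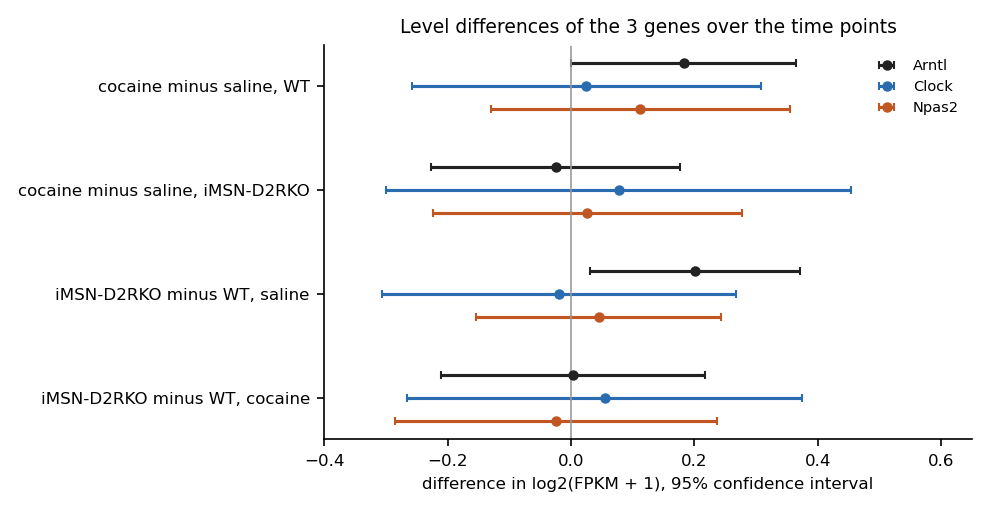
Level differences of the 3 genes on the log2(FPKM + 1) scale with 95% confidence intervals, for cocaine minus saline in each genotype and iMSN-D2RKO minus WT in each treatment, over the time points. The intervals of Clock and Npas2 all include 0, as do those of Arntl in cocaine-treated mice and for cocaine in iMSN-D2RKO mice; the other Arntl estimates are 0.18 and 0.20.

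Differences between the rhythms themselves were tested by the interaction of treatment or genotype with the cosine terms. The share of all genes called was 0% for cocaine against saline in WT, 0% in iMSN-D2RKO, 0% for iMSN-D2RKO against WT in saline and 0% in cocaine, with 198, 789, 355 and 895 genes at an unadjusted limma value under 0.05. For Arntl the adjusted p (limma) was 1.0, 0.877, 0.979 and 0.766 in that order, so the calls of its rhythm in WT mice and not in iMSN-D2RKO mice were not shown to differ. For Clock the adjusted p lay between 0.594 and 1.0, and for Npas2 between 0.860 and 1.0. None of the 3 genes passed without the set-apart libraries either (adjusted p between 0.834 and 0.998).

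The activators were then set beside 43 other genes of the clock and of their own bHLH-PAS family, of which 41 reached 1 FPKM in at least 1 library (Sim1 and Sim2 did not). JTK_CYCLE called 9 of 41 in saline-treated WT (Arnt, Cry1, Dbp, Ncoa3, Nr1d1, Per2, Per3, Sirt1 and Usp2), where 9.81% of all genes were called, and 6 of 41 in cocaine-treated WT mice (Dbp, Npas4, Nr1d1, Per3, Sirt1 and Usp2). It called 4 of 41 in saline-treated (Arntl2, Ciart, Per2 and Per3) and 4 of 41 in cocaine-treated iMSN-D2RKO mice (Ciart, Nfil3, Per3 and Usp2). Without the set-apart libraries the counts were 9 (Bhlhe41, Cry1, Cry2, Nfil3, Nr1d1, Nr1d2, Per2, Per3 and Usp2), 3 (Nfil3, Npas4 and Per3), 2 (Ciart and Nr1d2) and 4 (Ciart, Nfil3, Per3 and Usp2). These counts are to be read beside the shares of all genes called by JTK_CYCLE in each series and setting, given above with the Arntl calls. Per3, a period gene, was the only one of the 41 called in all 4 series with all libraries, and its call in saline-treated iMSN-D2RKO mice was lost without the set-apart libraries (corrected p = 0.0318, exact null). The median corrected p of the 41 was 0.133, 0.413, 0.148 and 0.586, beside 0.340, 0.484, 0.586 and 1 for all genes tested.

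By role, the period and cryptochrome repressors gave 3, 1, 2 and 1 calls of 5 in the order above, the REV-ERB and ROR receptors 1, 1, 0 and 0 of 5, the PAR bZIP factors with their repressor Nfil3 1, 1, 0 and 1 of 4, and the E-box repressors Bhlhe40, Bhlhe41 and Ciart 0, 0, 1 and 1 of 3. The list of enzymes that modify or degrade clock proteins, which also holds Timeless, gave 1, 1, 0 and 0 of 10, in both cases Sirt1, and the bHLH-PAS relatives 2, 1, 1 and 0 of 12. Of the remaining genes, Usp2 was called in both WT series and in cocaine-treated iMSN-D2RKO mice, and Nampt in no series. The shares of all genes called in each series, given above with the Arntl calls, apply to these counts too. Arntl2, the paralogue of Arntl, was at only 1.37 ± 0.295 FPKM (SD, n = 66). Its corrected p was 1 and 0.340 in the WT series and 0.00622 and 0.0476 in the iMSN-D2RKO series, saline first. None of the 41 was called for a level difference between treatments or genotypes over the time points, or for a rhythm difference. Before adjustment 2 and 4 of the 41 had a limma value under 0.05 for cocaine against saline in WT and iMSN-D2RKO mice, and 6 and 2 for iMSN-D2RKO against WT in saline and cocaine, where 2.54%, 2.98%, 10% and 3.55% of all genes had one. For the rhythm differences these counts were 2, 5, 0 and 2 in the same order of comparisons, beside 1.38%, 5.54%, 2.48% and 6.21% of all genes.

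The genes that ARNTL activates did not share one phase. In WT mice Nr1d1, the gene of REV-ERB alpha, was called with a peak at ZT 11 in both series (corrected p = 0.00371 after saline and 1.90e-04 after cocaine, exact null). Dbp, a PAR bZIP output factor, peaked at ZT 11.7 and ZT 11 (0.00755 and 0.00173), and Per3 at ZT 15 and ZT 13 (6.22e-05 and 1.15e-04). The Arntl peaks of the same series were at ZT 22.1 and ZT 23. Per2 and Cry1, called after saline (1.43e-06 and 0.00533, exact null), peaked there at ZT 17, closer to Arntl, and were not called after cocaine (0.0296 and 0.0269). Per1 (1 in both WT series) and Cry2 (0.166 and 0.0216) were not called. When the set-apart libraries were left out, Per3 passed in both WT series (1.33e-04 and 0.00301), Nr1d1 after saline alone (0.00811, against 0.0128 after cocaine) and Dbp in neither (0.0128 and 0.0295). In dark against light hours Nr1d1 fell in all 4 series, by 0.41, 0.38, 0.54 and 0.52 on the log2 scale (limma, adjusted p between 0.00227 and 0.0289), the series being saline-treated and cocaine-treated WT, then saline-treated and cocaine-treated iMSN-D2RKO mice.

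**Figure D5:**
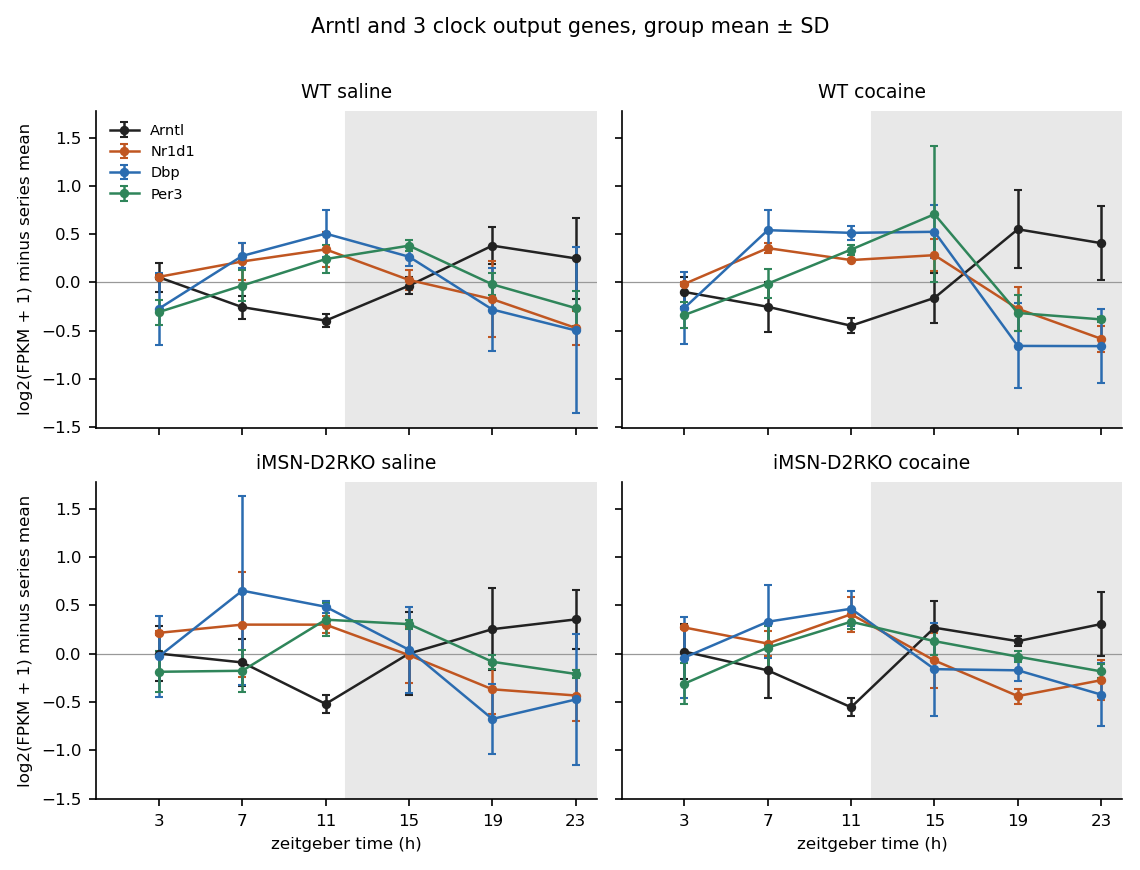
Group means (± SD, n = 3) of log2(FPKM + 1) minus the series mean for Arntl, Nr1d1, Dbp and Per3 against zeitgeber time in hours, in the 4 series; the dark phase is shaded. Arntl is lowest at ZT11, where Nr1d1 and Dbp are among their highest values (0.23 to 0.41 and 0.47 to 0.51 above the series mean).

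Likeness of profiles was described by Pearson's r over the 22 group means of log2(FPKM + 1), with no test, since the set-apart libraries were spread unevenly over the groups. With all libraries Arntl ran most opposite, among the clock genes, to Dbp (r = -0.88, and -0.71 without the set-apart libraries), Usp2 (-0.85 and -0.75) and Nr1d1 (-0.81 and -0.72). This order changed without the set-apart libraries, where Ciart came first (-0.70 with all libraries and -0.75 without) and Dbp lay behind Usp2, Nr1d1 and Fbxl21. Per2 (0.15 and 0.01) and Cry1 (0.46 and 0.53) did not run opposite to Arntl. Nfil3, the repressor that works on the sites of Dbp, went the other way, at 0.59 and 0.75. The likeness of Arntl to Clock (0.70) and Npas2 (0.67) was lost without the set-apart libraries, at -0.24 and 0.03, and that between Clock and Npas2 went from 0.78 to 0.34. The same dependence was seen over the 66 libraries' deviations from their group means, where r was 0.75 for Arntl and Clock, 0.83 for Clock and Npas2 and 0.75 for Arntl and Npas2, and 0.11, 0.02 and 0.28 with the library score removed.

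Over 9583 genes with a mean of at least 5 FPKM, the 5 genes most like Arntl were Hsph1 (r = 0.94), Mettl16 (0.93), Stip1 (0.91), Ahsa1 (0.90) and Rbm28 (0.90). Hsph1, Stip1 and Ahsa1 encode a heat-shock chaperone and cofactors of the HSP70 and HSP90 chaperones. Without the set-apart libraries they kept an r of 0.88, 0.81 and 0.82 with Arntl, and Mettl16 and Rbm28 kept 0.81 and 0.86. The genes least like Arntl were Tspan4 (-0.93), 2410002F23Rik (-0.92) and Cirbp (-0.90), the last encoding a cold-inducible RNA-binding protein, with -0.88, -0.89 and -0.80 without the set-apart libraries.

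Clock and Npas2 had other neighbours. Clock was most like Camsap2 (0.99), Cep170 (0.98), Arfgef1 (0.98), Senp7 (0.98) and Myo9a (0.98), and least like Khk (-0.99), Aspscr1 (-0.98) and Hspbp1 (-0.98). Of the 5 highest, 4 fell to between 0.53 and 0.66 without the set-apart libraries and Myo9a to 0.88. Npas2 was most like Crybg3 (0.91), Meis2 (0.91), Foxo1 (0.90), Lppr4 (0.90) and Pbx3 (0.90), and least like Tspan17 (-0.92), Nmral1 (-0.91) and Bok (-0.90). Without the set-apart libraries Meis2, a transcription factor gene also on the neighbouring tissue list above, fell to 0.35 with Npas2, and Foxo1 to 0.78. Genes with r above 0.8 numbered 420 for Arntl, 1660 for Clock and 392 for Npas2, and 31, 335 and 1 without the set-apart libraries.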

How the data were processed

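Per the paper's methods, poly(A) RNA of NAcc punches was sequenced from stranded libraries (single-end), aligned to mm10 with TopHat and Bowtie2, assembled with Cufflinks and quantified with Cuffnorm, and the submitters' processing notes name CASAVA 1.8.2, Bowtie and Cuffnorm. The authors deposited a table of FPKM for 24138 gene entries and 72 columns, of which 6 ZT3 columns repeat others with identical values, leaving 66 libraries. Reads per library cannot be recovered from FPKM, so depth is unknown and no counting interval is given; the number of libraries limits the precision. Cuffnorm scales libraries, so a level is relative to the other transcripts of that library. The study states more animals per time point than the 3 libraries of a group, and the sources used here do not say whether a library is 1 mouse or a pool, so p-values measure the spread between these libraries.

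Groups came from the labels. Rhythm was tested within a series by JTK_CYCLE (periods of 20 and 24 h, exact null, corrected p under 0.01, at most 1 replicate per time point left out by Dixon's test at 95%). Level comparisons used the log2 scale, log2(FPKM + 1) of the deposited values, and limma (version 3.58.1, R version 4.3.3) with Benjamini-Hochberg adjustment over all genes of at least 1 FPKM in at least 1 library. A fold on this scale understates the change of low genes. Both tests ran on the whole table and were tested on simulated data. The library score is a library's position on the main axis of within-group deviations of genes with a mean above 5 FPKM. Alternatives were a pseudocount of 0.1, no filter on low values, size factors, the set-apart libraries left out, the library score removed, a replicate block, a 24 h period alone, no Dixon's test, and each library or replicate number left out. The genes named are the 3 activators, the clock and cell type lists, Drd2, and for each activator the 5 genes with the highest and the 3 with the lowest likeness. The genes and lists were chosen with earlier results of these data known. Promoter windows came from RefSeq, positions from GENCODE; strand was marked by the kit, while the strand setting of the quantification is not given in the sources used here. Protein sequences were not analysed here.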

Additional observations from a re-analysis of the deposited data

How the results depend on the processing

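Of 12 dark against light results for the 3 genes, 809 of 900 alternatives kept their side of the threshold. So did 5848 of 5850 for 78 time point results. For 24 level, rhythm difference and interaction results it was 990 of 990, and none passed in any. A change of sign counted only where a result passed. No result of the latter 2 kinds passed in the main setting, and most alternatives left out 1 library, often outside the groups compared. These counts therefore say little about how far estimates moved. For Arntl the genotype difference of the cocaine effect at ZT23 ranged from -0.89 to 0.17 with libraries left out. The Arntl amplitude in saline-treated WT mice moved to 0.25 when the set-apart libraries were left out and 0.23 after removal of the library score, and in cocaine-treated WT mice to 0.34 and 0.30. The Arntl rhythm (JTK_CYCLE) passed in cocaine-treated iMSN-D2RKO mice with a 24 h period alone (corrected p = 0.00839, exact null) and after removal of the score (0.00745), and in saline-treated iMSN-D2RKO mice after removal of the score (0.00255). Dark minus light for Arntl in cocaine-treated iMSN-D2RKO mice passed at 0.37 after removal of the score, 0.51 with the pseudocount of 0.1 and 0.41 without the set-apart libraries; in saline-treated iMSN-D2RKO mice it no longer passed, at 0.14 after removal of the score and 0.14 without the set-apart libraries. For Clock in saline-treated iMSN-D2RKO mice it turned to -0.039 after removal of the score and no longer passed with no filter (0.55), size factors (0.48) or without the set-apart libraries (0.025). Arntl in iMSN-D2RKO minus WT at ZT7 in saline passed at 0.38 after removal of the score. The causes were not tested.

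With 1 library or 1 replicate number left out, dark minus light ranged for Arntl from 0.37 to 0.63 in cocaine-treated WT, 0.29 to 0.54 in saline-treated WT, 0.38 to 0.62 in cocaine-treated iMSN-D2RKO and 0.29 to 0.48 in saline-treated iMSN-D2RKO mice. The cocaine-treated WT call was lost without replicate 3 of every group; the saline-treated iMSN-D2RKO call without replicate 2 of ZT15, replicate 1 of ZT19, replicate 3 of ZT23, or replicate 1 or 3 of every group; 8 of 69 fits passed in saline-treated WT and 19 of 69 in cocaine-treated iMSN-D2RKO mice. For Clock it ranged from 0.062 to 0.65 in cocaine-treated WT and 0.38 to 0.79 in saline-treated iMSN-D2RKO mice, where 47 of 69 such fits lost the call, and for Npas2 from -0.041 to 0.49 in cocaine-treated WT mice, with both cocaine-treated WT results passing without replicate 2 of every group. The genotype difference of the cocaine effect on Clock at ZT19 ranged from -1.63, which passed without replicate 2 of every group, to -0.019. The corrected p of the Arntl rhythm (exact null) ranged from 1.97e-04 to 0.0499 in cocaine-treated WT mice, lost without replicate 3 of every group; from 0.00253 to 0.898 in cocaine-treated iMSN-D2RKO mice, passing without replicate 2 of ZT3, replicate 2 of ZT7, replicate 1 of ZT19 or replicate 2 of ZT23; and from 0.00745 to 0.456 in saline-treated iMSN-D2RKO mice, passing without replicate 2 of ZT15. For Clock in cocaine-treated WT mice it ranged from 0.00173 to 1, passing without replicate 2 of every group.

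Replicate numbers did not pair the libraries: of 30 same-numbered saline and cocaine pairs, 7 had deviations correlated above 0.1. With the replicate block, the Arntl cosine in cocaine-treated WT mice had a limma adjusted p of 0.0299, against 0.0241 without it. The number of genes called for a cosine in WT mice depended on the setting: in saline-treated WT mice it was 1965, 411 with no filter, 144 when the set-apart libraries were left out and 3241 with the replicate block, and in cocaine-treated WT mice 2084, 1279, 0 and 1899 (limma, adjusted p under 0.05). The count of 0 stood beside 1716 genes at an unadjusted value under 0.05, and removal of the library score gave 113 calls in cocaine-treated WT mice. For iMSN-D2RKO minus WT in saline at ZT7, the number of genes called was 1696 without the set-apart libraries, against 449 with all libraries. At ZT19 that setting left 1 library each in saline-treated WT, cocaine-treated WT and saline-treated iMSN-D2RKO mice. Counts of called genes are therefore not given for comparisons of group means that use these groups in that setting. The rhythm counts given for that setting come from fits over all time points of a series. In these series those fits also rest on 1 library at ZT19.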
